A study of Mus musculus with 6 samples.

Results

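The genes described here are the chaperones, disulfide isomerases, stress sensors and degradation factors of the endoplasmic reticulum (ER), taken from a list of 41 names defined by function. A row was found by gene symbol through GENCODE M21 for 40 of the 41 names, and the name *Crelf* matched none. All 40 matched genes had a mean of at least 0.5 TPM (reads per gene divided by its length and scaled to a sum of 1000000) over the clones and were among the 17823 genes tested, of 53808 genes listed for each clone. They comprise 5 sensors and transcription genes, 9 chaperones of the Hsp70 and Hsp90 families with their cofactors, 2 lectin chaperones, 11 genes of disulfide formation, 2 prolyl isomerases, 10 genes of ER-associated degradation and *Wfs1*.

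Proteins that enter the ER of a secretory cell are folded there by chaperones, receive disulfide bonds from isomerases and oxidases and, if they fail to fold, are sent back to the cytosol and degraded. When unfolded protein accumulates, the sensors ATF6, IRE1 (encoded by *Ern1*) and PERK (encoded by *Eif2ak3*) are activated, and ATF6 and XBP1 raise the transcription of the folding and degradation genes while PERK slows translation and induces ATF4 and CHOP. β cells load the ER with proinsulin, and loss of several of these genes is known to cause β cell failure.

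RNA was sequenced from 6 clonal lines of MIN6, a mouse insulinoma line used as a β cell model. All clones came from MIN6 cells that express Cas9, were infected with a lentivirus carrying a guide RNA against *Snd1* and were selected with puromycin. In the 3 control clones the guide was directed to *intron 2*, and in the 3 *Snd1* KO clones to *exon 2*. The paper lists 2 guides against *exon 2* and describes KO clones made with each. Each clone was grown from single-cell seeding and is represented by 1 library, so that the p-values measure the spread between clones, and a change made by the knockout and a trait of 1 clone can be told apart only over the 3 clones of a group. The clones are called control 1 to 3 and KO1 to KO3. *Snd1* itself was at 113, 119 and 112 TPM in control and at 14.7, 57.1 and 19.9 TPM in KO1, KO2 and KO3, so KO2 kept the most *Snd1* RNA of the KO clones, at 49.8% of the control mean. The RNA level does not measure the protein left. In the paper the KO clones were chosen as deficient in SND1 by immunoblot, and sequencing found indels in each.

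Between 25898107 and 33117573 reads on genes per clone were recovered from the steps of the TPM values. These totals exceed the reads per library that the paper states, and what a recovered read stands for was not determined. The 10 β cell markers were detected in every clone, with *Ins1* and *Ins2* among them, and mitochondrial genes held 9.17% to 16.4% of the TPM. Acinar and duct markers summed to at most 1.93 TPM, with 3 of the 6 at 0 in every clone. Fibroblast, endothelial and immune markers summed to at most 4.30 TPM. Of the markers of other islet cells, *Hhex* was at 0 in every clone, while *Gcg* was at 267, 174 and 314 TPM in control and at 1099.8, 55.2 and 148 TPM in KO1, KO2 and KO3.

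What the members share in sequence was looked for in their promoters. The RefSeq table (GRCm38.p6) gives 250 bases before and 50 bases after each start, and 36 of the 40 members have an entry. The ER stress response element, ERSE, is the element through which ATF6 acts together with the factor NF-Y, and was searched as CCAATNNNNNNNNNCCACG on both strands. It occurred in 10 of the 36 members (27.8%) and in 37 of all 27025 genes in the table (0.137%). Every ERSE of a member is shown, because it was the stress element found in the most members. Each is written 5′ to 3′ on the strand on which it reads as an ERSE, with the fixed letters in capitals and the free spacer in lower case. Distances are to the RefSeq start, which can differ from the GENCODE start. The ERSE of *Hspa5* lies inside the GENCODE coordinates of the gene.
*Hspa5*, chr2:34772025-34772043, plus strand, 65 to 47 bases before the start: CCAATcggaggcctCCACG
*Hsp90b1*, chr10:86705533-86705551, plus strand, 107 to 89 bases before the start: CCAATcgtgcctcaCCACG
*Hsp90b1*, chr10:86705638-86705656, minus strand, 212 to 194 bases before the start: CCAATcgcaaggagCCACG
*Dnajc3*, chr14:118937827-118937845, plus strand, 105 to 87 bases before the start: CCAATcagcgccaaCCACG
*Creld2*, chr15:88819520-88819538, minus strand, 126 to 108 bases before the start: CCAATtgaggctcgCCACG
*Calr*, chr8:84847075-84847093, plus strand, 162 to 144 bases before the start: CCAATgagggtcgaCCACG
*Canx*, chr11:50325800-50325818, minus strand, 145 to 127 bases before the start: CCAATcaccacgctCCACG
*Pdia6*, chr12:17266491-17266509, plus strand, 98 to 80 bases before the start: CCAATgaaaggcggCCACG
*Ero1lb*, chr13:12565682-12565700, minus strand, 201 to 183 bases before the start: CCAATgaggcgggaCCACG
*Syvn1*, chr19:6046532-6046550, plus strand, 44 to 26 bases before the start: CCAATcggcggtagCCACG
*Derl3*, chr10:75893242-75893260, minus strand, 156 to 138 bases before the start: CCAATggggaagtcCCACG

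*Hsp90b1* had 2 ERSE, which read in opposite directions, and *Pdia6* had 1. The part of each promoter that lies before every annotated transcript of the gene is given for these members, read along the gene, with the ERSE in capitals, so that an ERSE on the opposite strand appears as its reverse complement.
*Hsp90b1*, chr10:86705510-86705694, minus strand, 185 bases: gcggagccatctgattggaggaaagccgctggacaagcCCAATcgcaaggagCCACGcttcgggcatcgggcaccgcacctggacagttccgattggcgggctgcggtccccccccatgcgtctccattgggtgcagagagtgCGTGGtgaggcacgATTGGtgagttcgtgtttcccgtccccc
*Pdia6*, chr12:17266339-17266544, plus strand, 206 bases: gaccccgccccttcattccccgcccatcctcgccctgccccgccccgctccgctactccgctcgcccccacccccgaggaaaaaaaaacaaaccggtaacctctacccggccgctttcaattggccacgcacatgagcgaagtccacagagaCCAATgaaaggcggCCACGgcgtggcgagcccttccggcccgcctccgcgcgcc

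The related element ERSE-II, ATTGGNCCACG, was found in *Herpud1* and *Dnajb11*, that is in 5.56% of the members and in 0.0444% of all genes in the table. In *Herpud1* it reads along the gene at chr8:94386377-94386387 on the plus strand (ATTGGgCCACG). In *Dnajb11* it lies just past the start. The element bound by XBP1, UPRE, searched as TGACGTGG, was found in *Txndc5* and *Txndc11*, again in 5.56% of the members and in 0.714% of all genes. A CCAAT box alone, which is also part of each ERSE and, on the other strand, of each ERSE-II, was present in 28 of the 36 members (77.8%) and in 41.1% of all genes. *Atf6*, *Hyou1*, *Manf* and *Derl1* have no entry in the table.

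The comparison of *Snd1* KO with control asks whether loss of *Snd1* changes the RNA of the folding machinery. By limma on log2(TPM + 1), none of the 40 members passed both an adjusted p-value (Benjamini-Hochberg) of 0.05 and 2-fold, and 0.00561% of all genes tested did (1 gene). The targeted gene *Snd1* did not pass either, with a log2 fold change of −2.11 ± 0.45 (SE, adjusted p-value 0.511 in limma). The absence of calls therefore does not show that the members were unchanged. At an unadjusted p-value under 0.05, 0 of 40 members passed, and 7.96% of all genes did. The smallest unadjusted p-value of a member was 0.0798, for *Pdia5*, and adjusted p-values ran from 0.608 to 0.993. On average over the clones 36 members were lower and 4 higher in *Snd1* KO, and the median log2 fold change was −0.22, beside 0.04 over all genes tested. The mean hid a wide split between the KO clones, which is described below. The 3 KO clones all lay above the 3 control clones for 0 members (9.69% of all genes) and all below them for 1, *Derl1* (4.03% of all genes).

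*Derl1* encodes a membrane protein of the channel through which misfolded proteins leave the ER (ENSMUSG00000022365, chromosome 15, 57869502 to 57892448, GRCm38). It was at 258, 259 and 239.7 TPM in control and at 235, 196 and 226 TPM in KO1, KO2 and KO3. The groups did not overlap, with a gap of less than 5 TPM between KO1 and control 3. In limma the fold change of *Derl1* was −0.21 ± 0.11 on the log2 scale (SE, n = 3 clones per group, adjusted p-value 0.644), and the exact two-sided permutation test gave 0.1, the smallest p that 3 clones against 3 can reach.

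**Figure D1:**
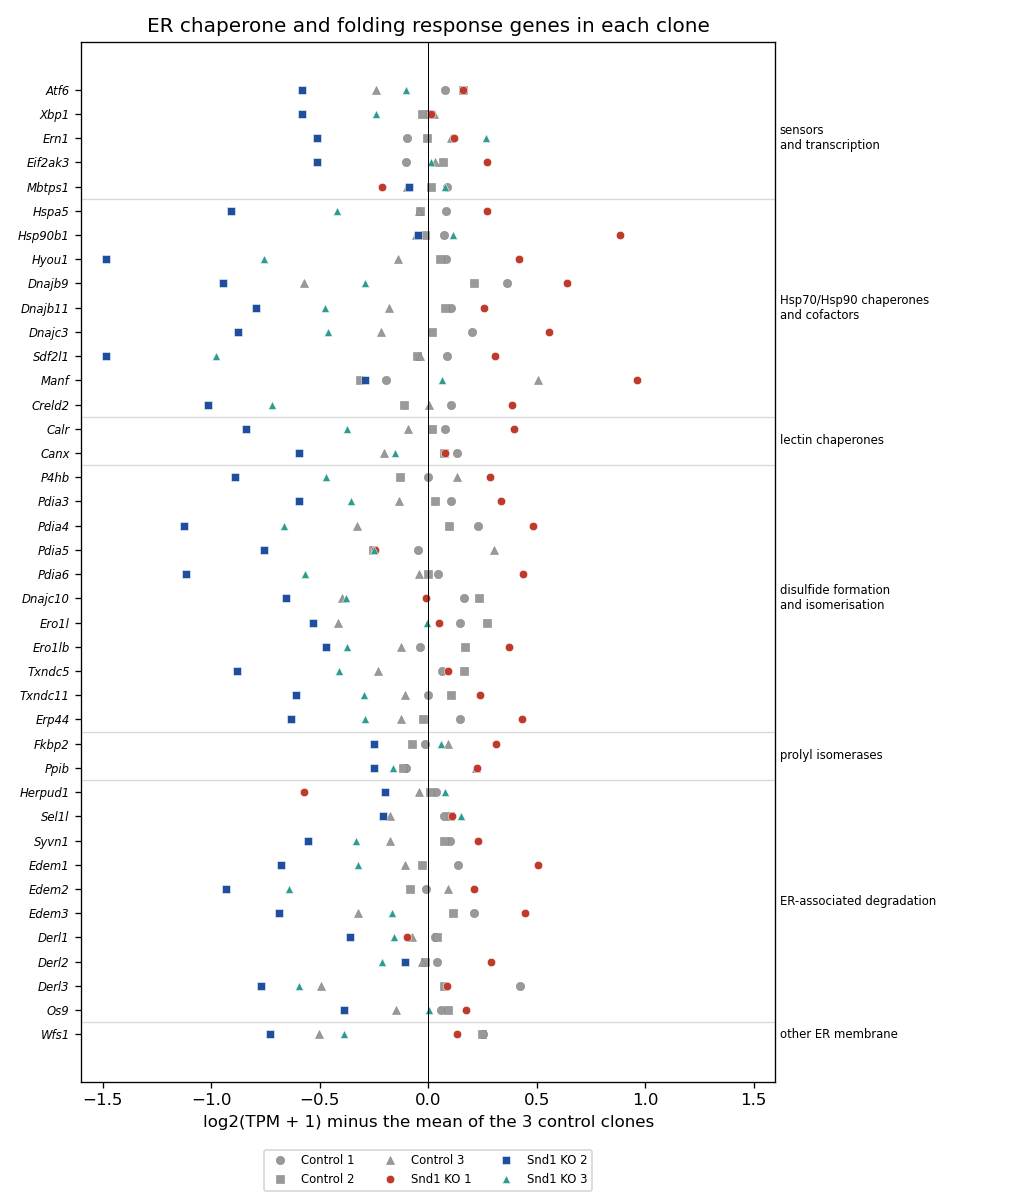
Level of each of the 40 members in each clone, as log2(TPM + 1) minus the mean of the 3 control clones (x axis), with genes in rows ordered by role. Gray symbols are control clones, red circles KO1, blue squares KO2 and green triangles KO3. KO2 lies left of all 3 control clones for 37 members, KO3 for 23, and KO1 lies right of them for 28.

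The KO clones stood on different sides of the control clones. In KO1, 28 of 40 members (70%) were above the range of the 3 control clones, against 31.6% of all genes tested, and 3 were below it (*Mbtps1*, *Herpud1* and *Derl1*), against 24.4%. In KO2, 37 members (92.5%) were below the control range, against 21.7% of all genes, and 0 were above it, against 37.1%. The 3 members that were not below it in KO2 were *Mbtps1*, *Hsp90b1* and *Manf*. In KO3, 23 members (57.5%) were below the control range, against 17.9% of all genes, and 4 (*Ern1*, *Hsp90b1*, *Herpud1* and *Sel1l*) were above it, against 32.4%. These counts use the same 3 control clones for each KO clone, and with 1 library per clone no difference between KO clones could be tested.

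**Figure D2:**
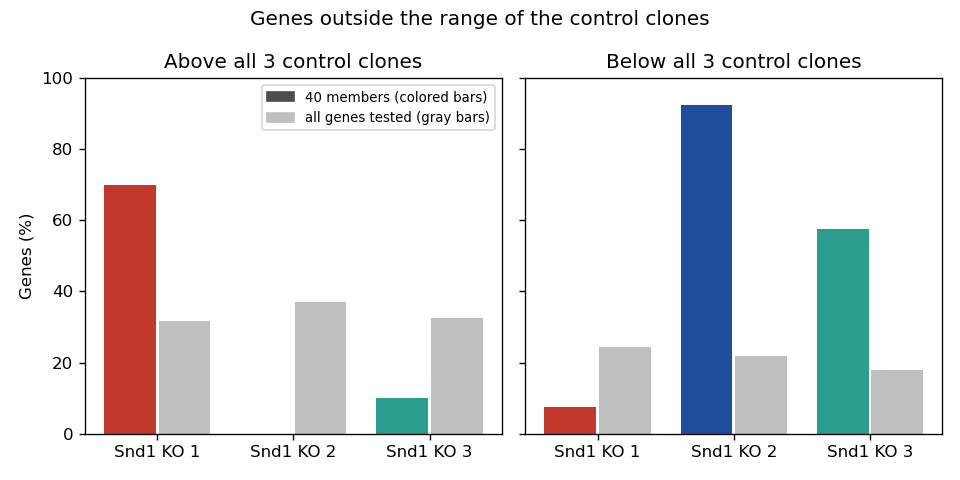
Percent of genes above all 3 control clones (left) and below all 3 (right) in each *Snd1* KO clone. Colored bars are the 40 members and gray bars the 17823 genes tested. Members are above the control range in KO1 (70%, gray bar 31.6%) and below it in KO2 (92.5%, gray bar 21.7%) and KO3 (57.5%, gray bar 17.9%).

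Across the 6 clones, 26 members were highest in KO1 (21.5% of all genes), 35 were lowest in KO2 (14.7%), and 23 were both (5.29%). For 19 members KO1 was above the control range while KO2 and KO3 were both below it, which held for 3.24% of all genes. KO3 lay between KO2 and KO1, with KO2 lowest, for 35 members and for 22% of all genes. The level in KO1 was at least 2 times that in KO2 for 17 members and for 10.1% of all genes. The KO clones were accordingly more spread out than the control clones, with a median SD of log2(TPM + 1) of 0.46 over KO and 0.13 over control, compared with 0.24 and 0.22 over all genes tested. The SD was larger over KO than over control for 36 of 40 members and for 53.5% of all genes.

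The summed level of the 40 members was 17781, 17069 and 16457 TPM in control (mean 17102 ± 662, SD, n = 3). It was 21964 TPM in KO1, 128% of the control mean, 10591 TPM in KO2 (61.9%) and 13526 TPM in KO3 (79.1%). TPM are shares of one total. Taken against the control mean on the log2 scale, the median of the members was 0.26, −0.62 and −0.29 in KO1, KO2 and KO3, and the median over all genes tested was 0.02, 0.06 and 0.05. In bulk RNA, fewer cells of a kind and less RNA per cell cannot be told apart. Proinsulin, a main cargo of the β cell ER, is encoded by *Ins1* and *Ins2*. *Ins1* was at 2429, 4086 and 6033 TPM in control and 2059, 11945 and 8219 TPM in KO1, KO2 and KO3, and was lowest in KO1 and highest in KO2. *Ins2* was at 14479.8, 13976 and 18632 TPM in control and 12195, 15716 and 11194 TPM in KO1, KO2 and KO3, so that KO1 and KO3 were below every control clone and KO2 lay among them. The part of cargo in the levels of the members was not tested.

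Because KO1 and KO2 pull the mean apart, the group comparison depended on which of them entered it. Without KO1, 19 members were at an unadjusted p-value under 0.05, all of them lower in *Snd1* KO (14.3% of all genes in either direction, 4.63% lower). These 19 included *Hspa5*, *Hyou1*, *Sdf2l1*, *Calr*, *P4hb*, *Xbp1* and 8 of the 11 disulfide genes, and none was called after adjustment. The 23 members below the control range in both KO2 and KO3 then had groups that did not overlap (10.9% of all genes), and the median log2 fold change was −0.46. Without KO2 it was −0.03, and 3 members, *Ern1*, *Hsp90b1* and *Sel1l*, lay above every control clone in both remaining KO clones (13.3% of all genes). With clone quality weights, which weigh down KO1 and control 3, 24 members were at an unadjusted p-value under 0.05 (32.6% of all genes) and 6 at an adjusted one (12.1% of all genes), none of these at 2-fold. Leaving out control 3 gave 4 members lower in every KO clone (17.9% of all genes), leaving out control 2 gave 2 (6.05%) and leaving out KO3 gave 2 (7.53%), and 1 member was at an unadjusted p-value under 0.05 in each of these fits (13.9%, 4.28% and 6.36% of all genes). Quantile normalization gave 3 members lower in every KO clone (7.64%), and a block for the clone number gave 1 at an unadjusted p-value under 0.05 (6.7%).

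The sensors and transcription genes had a summed level of 105%, 70.1% and 97.7% of the control mean in KO1, KO2 and KO3. Without KO2 the log2 fold change turned to 0.027 for *Atf6*, 0.193 for *Ern1* and 0.142 for *Eif2ak3*. *Atf6* encodes a membrane-bound transcription factor that is cut free in the Golgi under ER stress. It was at 124, 132 and 99.8 TPM in control and 132, 78.5 and 109.6 TPM in KO1, KO2 and KO3 (log2 fold change −0.18 ± 0.21, adjusted p-value 0.839 in limma). KO2 was below every control clone and the other KO clones lay among them. *Mbtps1* encodes site-1 protease, which makes the first cut in ATF6. It was at 58.6, 55.6 and 51.4 TPM in control and 47.4, 51.8 and 58.2 TPM in KO1, KO2 and KO3 (log2 fold change −0.07 ± 0.12, −0.0051 without KO1 and −0.15 without KO3, adjusted p-value 0.885 in limma), and differed from most members in that KO1 was its lowest clone.

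*Ern1* encodes IRE1, the kinase and nuclease that splices the *Xbp1* RNA. Its level was 126, 135 and 145 TPM in control and 147, 94.5 and 163 TPM in KO1, KO2 and KO3 (log2 fold change −0.04 ± 0.21, adjusted p-value 0.971 in limma). KO1 and KO3 were above every control clone and KO2 below them. *Xbp1* was at 230.0, 226 and 235 TPM in control and 232, 154 and 195 TPM in KO1, KO2 and KO3 (log2 fold change −0.27 ± 0.16, adjusted p-value 0.678 in limma). KO1 was within the control range and KO2 and KO3 below it. The values per gene do not separate spliced from unspliced *Xbp1*. *Eif2ak3*, the gene of PERK, was at 48.3, 54.4 and 53.0 TPM in control and 62.7, 36.0 and 52.2 TPM in KO1, KO2 and KO3 (log2 fold change −0.08 ± 0.20, adjusted p-value 0.940 in limma), again with KO1 above and KO2 below the control clones.

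The chaperones of the Hsp70 and Hsp90 families and their cofactors held the widest differences among the clones. All 9 were above the control range in KO1 (31.6% of all genes), which was their highest clone (21.5%), 7 were below it in KO2 (21.7%) and 6 in KO3 (17.9%). Their summed level was 146%, 62.4% and 79.9% of the control mean in KO1, KO2 and KO3. *Hspa5* encodes BiP, the main Hsp70 of the ER and the protein that holds the stress sensors inactive (ENSMUSG00000026864, chromosome 2, 34771970 to 34777547). It was at 1287, 1184 and 1178 TPM in control and 1469, 646 and 906 TPM in KO1, KO2 and KO3. KO1 was above the control clones, and KO2 and KO3 were below them. With the KO clones on both sides, the log2 fold change was −0.35 ± 0.29 and the adjusted p-value 0.758 in limma. Without KO1 the fold change was −0.67 and without KO2 −0.07.

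*Hyou1* encodes a large Hsp70 that exchanges nucleotide on BiP. It had the largest ratio of highest to lowest clone among the members, 3.78, with 241, 236 and 206 TPM in control and 304, 80.5 and 134 TPM in KO1, KO2 and KO3. *Sdf2l1*, a cofactor of BiP, was next with 3.48. It was at 601, 547 and 552 TPM in control and 701, 201 and 287 TPM in KO1, KO2 and KO3. Both genes were thus at about 35% of the control mean in KO2 (35.3% and 35.5%). *Sdf2l1* had the lowest log2 fold change of the 40 members, −0.72 ± 0.43, with an adjusted p-value of 0.679 in limma, and is given for that reason after its values were seen. Without KO1 it was −1.23 and without KO2 −0.33.

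The J-domain cofactors *Dnajb9*, *Dnajc3* and *Dnajb11* of BiP were each highest in KO1 and lowest in KO2, while *Dnajc10*, a reductase with a J domain that is grouped here with the disulfide genes, was lowest in KO2 and within the control range in KO1 and KO3. *Dnajb9*, whose protein binds BiP and IRE1, was at 510.2, 460.2 and 266 TPM in control and 619, 206 and 324 TPM in KO1, KO2 and KO3, a range of 3.01 between clones that included a wide spread in control. *Dnajc3* was at 315, 277 and 236 TPM in control and 403, 149 and 198 TPM in KO1, KO2 and KO3. *Dnajb11* was at 214, 209 and 175 TPM in control and 238, 114 and 143 TPM in KO1, KO2 and KO3. For *Dnajc3* and *Dnajb11* KO1 was above and KO2 and KO3 below every control clone, while for *Dnajb9* KO3 lay within the control range. *Creld2*, a secreted ER stress gene, was at 463, 398 and 431 TPM in control and 562, 212 and 261 TPM in KO1, KO2 and KO3, with the same split.

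*Hsp90b1* and *Manf* departed from the group in KO2. *Hsp90b1* encodes GRP94, the Hsp90 of the ER (ENSMUSG00000020048, chromosome 10, 86690209 to 86705509, minus strand). It was at 1329, 1249 and 1213 TPM in control and 2331, 1221 and 1369 TPM in KO1, KO2 and KO3. KO1 stood at 184% of the control mean, KO2 was within the control range and KO3 just above it. Its log2 fold change of 0.32 ± 0.25 was the highest of the 40 members (adjusted p-value 0.758 in limma), and was 0.03 without KO1 and 0.50 without KO2. *Manf*, a secreted factor that binds BiP and protects β cells, was at 192, 177 and 313 TPM in control and 429, 179 and 229 TPM in KO1, KO2 and KO3. KO1 was again highest, at 189% of the control mean. The exons of both genes overlap those of 3 other annotated genes each, and those of 10 further members, *Dnajb9*, *Pdia3*, *Pdia4*, *Pdia6* and *Syvn1* among them, overlap at least 1. As the counting setting for strand is not given in the sources used here, some of their reads could belong to a neighbor.

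**Figure D3:**
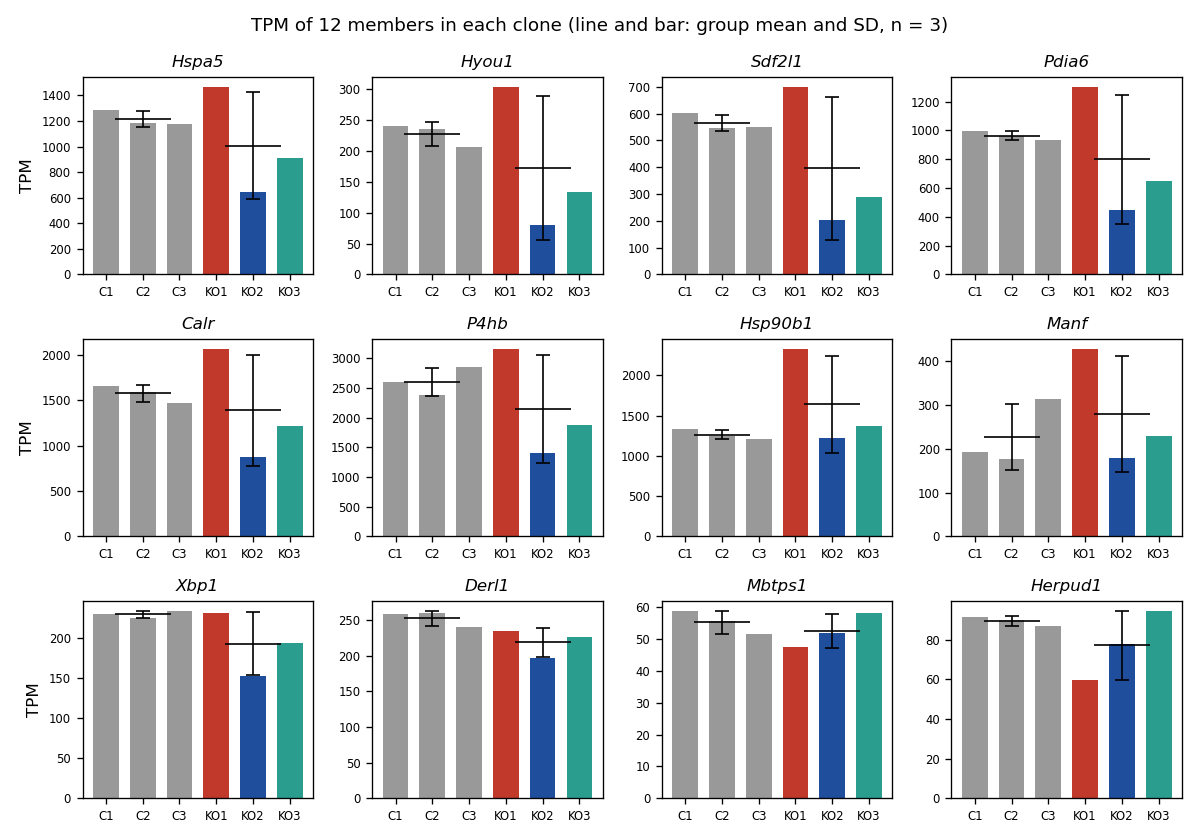
TPM of 12 members in each clone, 1 bar per clone (C1 to C3 control in gray, KO1 red, KO2 blue, KO3 green), with the group mean as a line and the SD over 3 clones as an error bar. *Hspa5*, *Hyou1*, *Sdf2l1*, *Pdia6*, *Calr* and *P4hb* are highest in KO1 and lowest in KO2, while *Hsp90b1* and *Manf* in KO2 stay within the control range and *Mbtps1* and *Herpud1* are lowest in KO1.

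The lectin chaperones calreticulin and calnexin bind glycoproteins that carry a single glucose. *Calr* was at 1664, 1596 and 1476 TPM in control and 2073, 880.2 and 1218 TPM in KO1, KO2 and KO3, with KO1 above and KO2 and KO3 below every control clone. *Canx* was at 541, 519 and 428 TPM in control and 521, 326 and 444 TPM in KO1, KO2 and KO3. For *Canx* KO2 alone left the control range.

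The genes of disulfide formation were lowest in KO2 without exception, 11 of 11 (14.7% of all genes), and all 11 were below the control range there (21.7%). In KO3, 8 were below it (17.9%), and in KO1, 7 were above it (31.6%). *P4hb* encodes protein disulfide isomerase and had the highest level of the members, both per summed exon length as deposited (2607 ± 238 TPM in control, SD, n = 3) and with each exonic base counted once (2299 ± 215 TPM). It was at 2594, 2376 and 2851 TPM in control and 3165, 1403 and 1878 TPM in KO1, KO2 and KO3. *Pdia6*, an isomerase known to act on IRE1, was at 993, 963 and 934 TPM in control and 1304, 444 and 649 TPM in KO1, KO2 and KO3. The control clones of *Pdia6* stayed within 60 TPM of each other, and all KO clones lay outside them by more than 250 TPM. *Pdia4*, another isomerase, was at 576, 524 and 391 TPM in control and 686, 224 and 309 TPM in KO1, KO2 and KO3, a ratio of 3.06 between the highest and the lowest clone.

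The other disulfide genes split less. *Pdia3*, which works with calnexin and calreticulin on glycoproteins, was at 1357, 1288 and 1149 TPM in control and 1592, 834 and 987 TPM in KO1, KO2 and KO3. *Ero1lb*, the ER oxidase that is abundant in β cells, ranged from 1014 TPM in KO2 to 1824 TPM in KO1, with control between 1287 and 1579.65 TPM. *Ero1l*, the related oxidase, was much lower, with 74.5, 81.3 and 50.1 TPM in control and 69.7, 46.2 and 66.9 TPM in KO1, KO2 and KO3, and KO2 alone left the control range. *Pdia5* had the smallest unadjusted p-value of the members and is named for it after its values were seen. It was at 313, 272 and 400.3 TPM in control and 273, 191 and 272 TPM in KO1, KO2 and KO3, with a log2 fold change of −0.42 ± 0.20 and an adjusted p-value of 0.608 in limma. KO1 and KO3 lay at the lower edge of the control range. *Erp44*, *Txndc11*, *Txndc5* and *Dnajc10* were at 53.4% to 64.2% of the control mean in KO2 and at 97.3% to 135% in KO1.

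The prolyl isomerases varied little. *Fkbp2* was at 479, 459 and 515 TPM in control and 601, 407 and 503 TPM in KO1, KO2 and KO3. *Ppib*, cyclophilin B, was at 237, 235 and 297 TPM in control and 298, 214 and 228 TPM in KO1, KO2 and KO3. Each was highest in KO1 and lowest in KO2, by a ratio of 1.48 and 1.39.

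Among the genes of ER-associated degradation, all 10 were below the control range in KO2 (21.7% of all genes) and 6 in KO3 (17.9%), while 7 were above it in KO1 (31.6%). The lectin-like factors *Edem1*, *Edem2* and *Edem3* mark glycoproteins for disposal and were each highest in KO1 and lowest in KO2. *Edem1* was at 75.6, 67.3 and 63.7 TPM in control and 97.8, 42.5 and 54.7 TPM in KO1, KO2 and KO3. *Edem2* was at 123, 117 and 132 TPM in control and 144, 64.5 and 79.0 TPM in KO1, KO2 and KO3, the lowest share of the control mean in KO3 among the degradation genes after *Derl3*. The ubiquitin ligase pair *Syvn1* and *Sel1l* differed, with *Syvn1* at 117%, 67.0% and 78.6% and *Sel1l* at 108%, 85.9% and 111% of the control mean in KO1, KO2 and KO3. *Os9*, a lectin of this ligase, was within the control range in KO3 and at 76.0% of the control mean in KO2.

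*Herpud1*, which encodes a membrane protein that recruits the ligase and is a target of both ATF6 and ATF4, did not follow this order of clones, and is described for that reason after its values were seen. It was at 91.6, 89.9 and 86.9 TPM in control and 59.8, 77.7 and 94.5 TPM in KO1, KO2 and KO3. It was lowest in KO1, at 66.8% of the control mean, and highest in KO3 (log2 fold change −0.23 ± 0.17, adjusted p-value 0.738 in limma). Without KO1 the fold change of *Herpud1* was −0.06, and with clone quality weights it was −0.01. *Derl2* was at 122%, 92.8% and 86.1% of the control mean in KO1, KO2 and KO3. *Derl3* had the lowest level of all members, with 6.20, 4.65 and 2.82 TPM in control and 4.71, 2.15 and 2.56 TPM in KO1, KO2 and KO3, which rest on 66 to 219 recovered reads. *Wfs1*, the ER membrane gene mutated in Wolfram syndrome, a form of diabetes, was at 90.0, 89.7 and 52.9 TPM in control and 82.6, 45.1 and 57.3 TPM in KO1, KO2 and KO3, so that control 3 lay among the KO clones.

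The members with an ERSE were next set beside those without, as values against the control mean on the log2 scale. The 10 members with an ERSE had medians of 0.38, −0.81 and −0.40 in KO1, KO2 and KO3, and the 26 members in the promoter table without one had medians of 0.23, −0.62 and −0.27. The ranges of these groups overlapped in every KO clone. The highest ratio of clones belonged to *Sdf2l1* among the members in the table, which has a CCAAT box but no ERSE in the window. In KO1, 8 of the 10 members with an ERSE and 18 of the 26 without were above the control range (31.6% of all genes). In KO2, 9 of the 10 and 25 of the 26 were below it (21.7%), and in KO3, 8 of the 10 and 13 of the 26 (17.9%). Outside the list, 27 genes had an ERSE in the window, of which 9 were tested. No count is drawn from these 9, since *Adcy3* and *Xlr3b* among them had a control mean below the filter and passed it through KO clones.

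**Figure D4:**
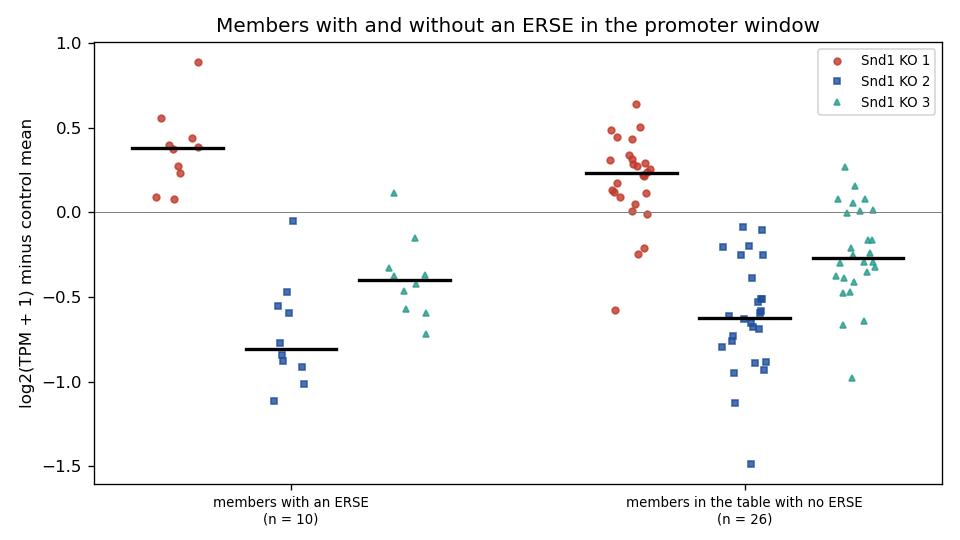
Level of each gene in KO1 (red), KO2 (blue) and KO3 (green) as log2(TPM + 1) minus the control mean (y axis), for 10 members with an ERSE and 26 members in the promoter table with none. Black lines are medians. The medians of members with and without an ERSE stand in the same order, KO1 highest and KO2 lowest, with overlapping ranges.

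Further genes of the pathway were taken from lists of 82 genes in 7 groups, of which 77 were tested. By limma 0 passed both the adjusted p-value and 2-fold, 5 were at an unadjusted p-value under 0.05 (6.49%, beside 7.96% of all genes), 2 had all KO clones above all control clones (2.6%, beside 9.69% of all genes), and 7 had them all below (9.09%, beside 4.03%). Of the 2 above, *Creb3l4* had a control mean of 0.485 TPM, under the filter, and was tested only through its KO clones. By clone, 25 of the 77 (32.5%) were above the control range in KO1, beside 31.6% of all genes, 52 (67.5%) were below it in KO2, beside 21.7%, and 31 (40.3%) in KO3, beside 17.9%. In the group of 8 genes of the glycoprotein folding cycle, which trims and restores the glucose read by the lectin chaperones, 5 were above the control range in KO1, 7 below it in KO2 and 6 below it in KO3. In the group of sensors and CREB3 factors, *Creb3l1*, an ATF6-like membrane-bound factor, was at 2.01, 1.34 and 4.73 TPM in control and 8.78, 6.26 and 5.69 TPM in KO1, KO2 and KO3 (log2 fold change 1.19 ± 0.36, adjusted p-value 0.568 in limma). *Creb3*, of the same family, was at 63.6, 62.4 and 62.4 TPM in control and 54.7, 47.0 and 51.1 TPM in KO1, KO2 and KO3 (log2 fold change −0.30 ± 0.10, adjusted p-value 0.585 in limma). In neither gene did the groups overlap.

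The branch from PERK through ATF4 to CHOP did not share the order of clones. Of its 8 genes, 7 were below the control range in KO1 (24.4% of all genes) and 0 above it (31.6%), with a median of −1.19 against the control mean on the log2 scale, whereas the chaperones were above it there. The genes below are named after their values were seen, except *Atf4*, whose groups did not overlap. *Atf4* was at 348, 361 and 404 TPM in control and 192, 315 and 347 TPM in KO1, KO2 and KO3 (log2 fold change −0.42 ± 0.23, adjusted p-value 0.646 in limma). Its groups nearly touched, with 347.3 TPM in KO3 and 347.8 TPM in control 1. *Ddit3*, which encodes CHOP and is annotated as 2 overlapping genes of which the one with the higher level is given, was at 59.3, 65.9 and 58.8 TPM in control and 22.1, 53.7 and 60.6 TPM in KO1, KO2 and KO3. The ATF4 and CHOP target *Trib3* was at 37.9, 48.4 and 48.5 TPM in control and 5.69, 34.4 and 41.1 TPM in KO1, KO2 and KO3. In each of these genes KO1 was the lowest clone by far. *Chac1* and *Nupr1* were at 19.4% and 7.96% of the control mean in KO1. In KO2, 7 of the 8 were also below the control range (21.7% of all genes), and in KO3 1 was, *Atf4* (12.5%, beside 17.9% of all genes). *Atf3* was within the control range in KO1 and above it in KO2 and KO3, and *Ppp1r15a* was also above it in KO3.

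**Figure D5:**
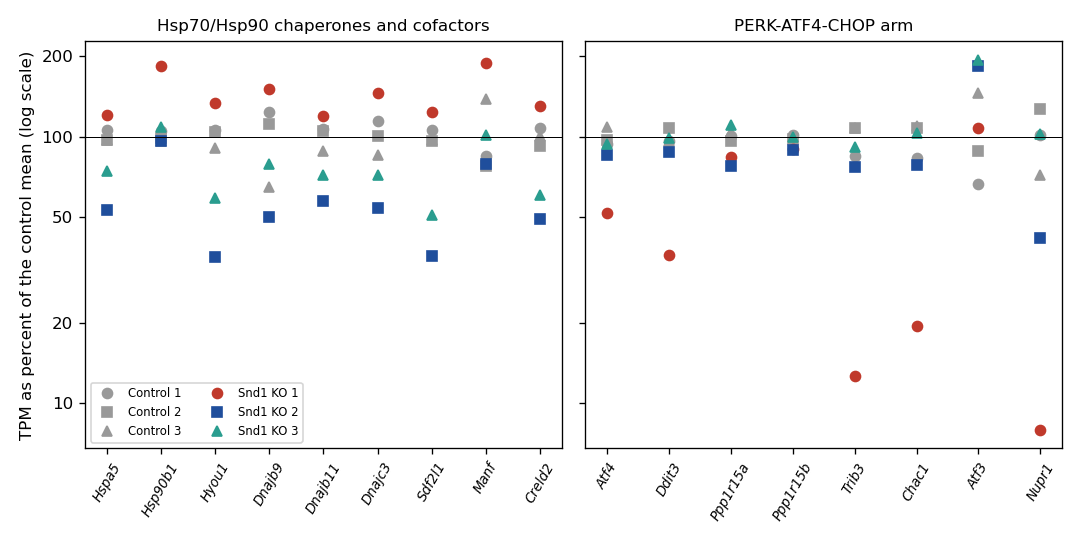
TPM as percent of the control mean on a log scale (y axis) for the 9 chaperones and cofactors (left) and the 8 genes of the PERK, ATF4 and CHOP branch (right). Gray symbols are control clones, red circles KO1, blue squares KO2 and green triangles KO3. KO1 lies above all control clones for all 9 chaperones and below them for 7 of the 8 genes on the right, down to 7.96% for *Nupr1*.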

How the data were processed

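RNA of 6 MIN6 clones was analyzed, grouped by the sample labels. The authors deposited 1 TPM value per gene and clone, which sums to 1000000 in each clone. The submitters' processing notes name FastQC, Trimmomatic, HISAT2, HTSeq, DESeq2 and mm10, without their roles. Multiplying TPM by the exon length of each gene, added up over its transcripts (GENCODE M21, GRCm38), gave whole reads, within 0.01, in every clone for 94.3% of genes above 0, and the other genes were solved by searching for a length. Such recovered reads gave the depth and cover counting error only. Levels of different genes are per this summed length.

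From the deposited TPM, log2(TPM + 1) was compared for genes whose mean reached 0.5 TPM by limma 3.58.1 (lmFit, eBayes with a trend, two-sided) in R 4.3.3, with Benjamini-Hochberg adjustment over all 17823 genes. Fold changes on this scale understate those of low genes. Calls needed an adjusted p-value under 0.05 and 2-fold. Symbols were matched to GENCODE M21, with *Ero1l* and *Ero1lb* also sought as Ero1a and Ero1b, and of 2 genes named *Ddit3* the one with the higher mean was used. Python 3.11.15 counted motifs in RefSeq promoters. The comparison was tested on simulated data. The members and lists were chosen with earlier results of these data known. Fold changes are given for members with groups that do not overlap, the sensors, *Hspa5* and *Hsp90b1*, and values in each clone for members with the highest level or widest range of their role. Fold changes of *Sdf2l1*, *Pdia5* and *Herpud1* were added after their values were seen. The other members with values in each clone, such as *Creld2*, *Dnajb11*, *Dnajc3*, *Pdia3*, *Ero1l* and *Edem1*, were picked after their values were known. Of the further pathway genes, those at an unadjusted p-value under 0.05 or with groups that do not overlap are named, except for an item that is not reported here. Alternatives were other pseudocounts, filters, scalings, weights, voom on recovered reads and leaving out clones. Protein sequences were not analyzed here.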

Additional observations from a re-analysis of the deposited data

How the results depend on the processing

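Under each of the 17 alternatives 0 members passed both the adjusted p-value and 2-fold. The count at an unadjusted p-value under 0.05 was 24 with clone quality weights (32.6% of all genes tested), where KO1 and control 3 had the lowest weights (0.286 and 0.279) and KO3 the highest (3.91). With these weights 6 members (*Dnajb11*, *Sdf2l1*, *Dnajc10*, *Txndc5*, *Edem2* and *Wfs1*) were at an adjusted p-value under 0.05 (12.1% of all genes), none at 2-fold, and *Sdf2l1* had a log2 fold change of −0.98 with an adjusted p-value of 0.0353 in limma, in a range of 0.0353 to 0.986 over its alternatives. Quantile normalization gave 3 members lower in every KO clone (7.64% of all genes). When each clone was left out in turn, the count at an unadjusted p-value under 0.05 ran from 0 to 19, the members lower in every KO clone from 1 to 23, those higher from 0 to 3, and the median log2 fold change from −0.46 to −0.03. The upper counts of 19 and 23 came from leaving out KO1 (14.3% and 10.9% of all genes) and the 3 from leaving out KO2 (13.3%). Members lower in every KO clone numbered 4 without control 3 (17.9% of all genes) and 2 each without control 2 (6.05%) and without KO3 (7.53%). At an unadjusted p-value under 0.05, 1 member passed without each of these 3 clones (13.9%, 4.28% and 6.36% of all genes). Of 165 fold changes of the 11 members that have one, 159 kept their direction and 6 turned. *Ern1* turned to 0.19 with weights, 0.01 without control 3 and 0.19 without KO2, *Mbtps1* to 0.0018 with weights, and *Atf6* and *Eif2ak3* to 0.027 and 0.142 without KO2. When clones were left out in turn, *Atf6* ran from −0.343 to 0.027, *Ern1* from −0.195 to 0.193 and *Eif2ak3* from −0.251 to 0.142. Over the same fits *Mbtps1* ran from −0.151 to −0.0051, *Hspa5* from −0.67 to −0.07, *Hsp90b1* from 0.03 to 0.50, *Sdf2l1* from −1.23 to −0.33, *Xbp1* from −0.41 to −0.11, *Derl1* from −0.26 to −0.13, *Pdia5* from −0.55 to −0.25 and *Herpud1* from −0.39 to −0.06. The cause was not tested. With the replicate block by clone number, 1 member was at an unadjusted p-value under 0.05 (6.7% of all genes). No pairing of clones is described in the sources used here, so none was used. The deviations of clones of the same number correlated at 0.051, −0.122 and −0.074. With 3 clones per group such values cannot show whether clones are linked. The 10 members with the highest level shared 8 with the 10 highest by length of merged exons. The precision was limited by the spread between clones, and by reads in *Derl3*.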

Other observations

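Outside the list, 2 of 5 prolyl isomerases of the ER tested were at an unadjusted p-value under 0.05 (7.96% of all genes), both lower in *Snd1* KO on average. *Fkbp14* was at 28.8, 28.9 and 12.9 TPM in control and 11.98, 8.03 and 11.1 TPM in KO1, KO2 and KO3, so the groups did not overlap (log2 fold change −1.04 ± 0.33, adjusted p-value 0.570 in limma). *Fkbp7* was at 9.47, 8.35 and 3.9995 TPM in control and 3.91, 2.14 and 4.47 TPM in KO1, KO2 and KO3 (log2 fold change −0.85 ± 0.35, adjusted p-value 0.607 in limma). In both genes control 3 lay near the KO clones and apart from the other control clones. *Fkbp11*, named after its values were seen, followed the chaperones instead, at 32.2, 28.1 and 33.8 TPM in control and 48.2, 10.5 and 25.4 TPM in KO1, KO2 and KO3.

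Among the other pathway genes with groups that did not overlap, *Cnpy3*, a cofactor of GRP94, was at 82.2, 72.4 and 70.0 TPM in control and 67.5, 55.5 and 58.6 TPM in KO1, KO2 and KO3 (log2 fold change −0.30 ± 0.12, adjusted p-value 0.607 in limma). *Man1b1*, a mannosidase that marks glycoproteins for disposal, was at 109.8, 106 and 103.7 TPM in control and 93.9, 85.7 and 94.9 TPM in KO1, KO2 and KO3. *Ubac2*, a gene of ER-associated degradation, was at 32.0, 32.6 and 29.0 TPM in control and 26.5, 23.7 and 27.7 TPM in KO1, KO2 and KO3. *Creb3l4* was higher in every KO clone but low throughout, from 0.435 to 1.09 TPM and 7 to 16 recovered reads. Its control mean of 0.485 TPM was below the filter, which it passed only through the KO clones, so nothing is drawn from it.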
